A study of Mus musculus with 2 samples.

Results

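The 10 genes described here encode junction proteins and transporters of the blood-brain barrier: Cldn5, Ocln, Tjp1, Mfsd2a, Slc7a5, Slco1a4, Slco1c1, Abcb1a, Abcg2 and Pltp. They were chosen by gene symbol, 10 of the 32285 genes in the deposited count matrices, and their levels were read in endothelial and mural cells gated by markers and in every other cell class. The data are single-cell RNA counts from the 5′ end of transcripts in 2 libraries of mouse hippocampus. The Crlf3-mutant library came from mice with the protein change L389P in Crlf3 (cytokine receptor-like factor 3) and the wild type library from mice without it; both sets of mice were 4 weeks old and untreated. In each library 4 hippocampi of 2 mice were pooled, dissociated with enzymes, cleared of debris and myelin and sorted for live cells by exclusion of the dye 7-AAD. Cells carry no label of their animal, and only sex-linked transcripts can part the pooled mice. The genotype could not be checked since counts show no allele. Whether the mutant mice carry 1 or both mutant copies is not given in the sources used here. With 1 library per genotype there is no replicate and no difference was tested. The intervals given are 95% intervals for counting error only and say nothing of differences between animals, dissociations or sorts.

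The Crlf3-mutant matrix held 43103469 unique molecular identifiers (UMIs) in 5720 barcodes and the wild type matrix 51328178 in 7713, and 64 barcodes occurred in both. After filtering, 5275 and 7109 cells were kept, and the median cell had 7385 and 6193 UMIs. Microglia-like cells made up 61.5% and 62.3% of them. Female-type cells (Xist found, Y transcripts not) and male-type cells (the reverse) occurred in both libraries.

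The endothelium of brain capillaries differs from that of most other organs. Its cells are sealed by tight junctions, they take up few substances by vesicles, and they rely on carriers for nutrients and on pumps that return drugs and other compounds to the blood. Claudin 5, encoded by Cldn5, and occludin, encoded by Ocln, are membrane proteins of the tight junction, and ZO-1, encoded by Tjp1, is a scaffold protein that ties junctions to the cytoskeleton in many cell types. Mfsd2a carries lysophospholipids with docosahexaenoic acid and holds down vesicle traffic, Slc7a5 is the light chain of the large neutral amino acid carrier LAT1, and Slco1a4 and Slco1c1 carry organic anions and, for Slco1c1, thyroid hormone. Abcb1a (P-glycoprotein) and Abcg2 pump drugs out of the cell, and Pltp is the phospholipid transfer protein.

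The promoters of 4 members are shown because their genes stand for the patterns described below: Cldn5 in endothelium alone, the neighbours Slco1a4 and Slco1c1 with different reach outside it, and Mfsd2a in endothelium and astrocytes. Each sequence runs from 250 bases before the annotated start to 50 after it (RefSeq, GRCm38.p6) and is written 5′ to 3′ on the strand of the gene. Capitals mark matches to the motifs searched, a GC box (GGGCGG) in Cldn5, a TCF/LEF motif (CTTTGA) in Mfsd2a and a SOX motif (AACAAT) in Slco1a4; Slco1c1 held no match.
Cldn5, chr16:18776597-18776896, plus strand: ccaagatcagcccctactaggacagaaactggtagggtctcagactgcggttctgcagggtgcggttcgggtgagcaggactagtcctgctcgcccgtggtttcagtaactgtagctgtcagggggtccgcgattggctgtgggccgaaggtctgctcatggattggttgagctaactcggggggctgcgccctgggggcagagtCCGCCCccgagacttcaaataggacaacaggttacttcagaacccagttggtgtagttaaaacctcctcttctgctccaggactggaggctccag
Mfsd2a, chr4:122961139-122961438, minus strand: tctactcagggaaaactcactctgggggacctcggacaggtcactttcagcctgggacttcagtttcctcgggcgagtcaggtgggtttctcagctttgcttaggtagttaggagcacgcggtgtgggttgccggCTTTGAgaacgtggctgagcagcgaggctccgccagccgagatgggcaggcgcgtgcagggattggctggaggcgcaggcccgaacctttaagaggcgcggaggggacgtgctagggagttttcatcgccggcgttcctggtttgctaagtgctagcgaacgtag
Slco1a4, chr6:141856171-141856470, minus strand: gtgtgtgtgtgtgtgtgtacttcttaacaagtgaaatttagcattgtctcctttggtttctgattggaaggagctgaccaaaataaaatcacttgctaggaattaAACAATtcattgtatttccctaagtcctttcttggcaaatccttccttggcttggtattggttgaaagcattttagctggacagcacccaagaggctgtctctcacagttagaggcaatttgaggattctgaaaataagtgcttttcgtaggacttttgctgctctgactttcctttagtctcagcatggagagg
Slco1c1, chr6:141524104-141524403, plus strand: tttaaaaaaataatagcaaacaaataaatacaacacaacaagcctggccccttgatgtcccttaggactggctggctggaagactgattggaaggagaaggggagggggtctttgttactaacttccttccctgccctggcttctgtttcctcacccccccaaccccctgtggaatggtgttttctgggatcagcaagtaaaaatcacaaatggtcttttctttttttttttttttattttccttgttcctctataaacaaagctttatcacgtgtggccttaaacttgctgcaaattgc

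These 4 windows differ in base composition. The Cldn5 window had 58.33% G or C and 12 CpG dinucleotides and the Mfsd2a window 60.33% and 22, against 40.67% and 1 for Slco1a4 and 42% and 1 for Slco1c1; the median of 32851 mouse promoter windows of this length was 52.67% and 7. Of the 10 members, 9 had a window in the RefSeq table (12 windows in all). On either strand, the ETS motif CCGGAA was found in 1 of the 9 members (Ocln), the SOX motif in 1 (Slco1a4), the FOX motif TGTTTAC in 1 (Abcb1a), the TCF/LEF motif in 2 (Mfsd2a and Abcb1a) and the GC box in 5 (Cldn5, Ocln, Tjp1, Abcg2 and Pltp). The same motifs occurred in 14.9% (ETS), 10.72% (SOX), 3.65% (FOX), 16% (TCF/LEF) and 35.66% (GC box) of all windows. These shares count windows, and a member can have more than 1. By window, 1 (ETS), 1 (SOX), 1 (FOX), 2 (TCF/LEF) and 7 (GC box) of the 12 member windows had a match. The Abcb1a window ends at 8567140, upstream of that gene's start at 8660077 in the annotation used for the gene positions given here. Its FOX and TCF/LEF matches are thus not near that start. In the same annotation the Tjp1 window, and all Abcg2 windows but the first, lie inside their genes. A match describes letters in a window and nothing of binding.

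Endothelial clusters held 810 Crlf3-mutant and 824 wild type cells and were split by the number of marker genes with at least 1 UMI in a cell. Cells with at least 4 of 13 arterial markers were called arterial-like (105 and 81 cells). Cells with at most 2 arterial markers were called venous-like with at least 4 of 8 venous markers (23 and 33 cells), and capillary-like with fewer venous and at least 4 of 7 capillary markers (581 and 598 cells). The 101 and 112 cells between these gates were left out. Mural-like cells (169 and 131) join pericyte-like and smooth muscle-like clusters. The members, and the other solute carriers listed, were not among the genes used to cluster cells, and none of them is a gate marker. The larger endothelial cluster was led by the haemoglobin gene Hbb-bs, and Cldn5, Slco1a4 and Pltp were among its 10 leading genes.

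Markers chose these cells, so their sums describe the gates and are no check of them. The 13 endothelial markers summed to 1119 and 1146 CPM (UMIs scaled to a class total of 1000000) in mural-like cells of the Crlf3-mutant and wild type library, against 18595 and 17542 CPM in capillary-like cells. The 13 arterial markers summed to 3460 and 4179 CPM in arterial-like cells and to 464 and 499 CPM in capillary-like cells. In mural-like cells they reached 2676 and 3251 CPM. Arterial-like cells also held 6 markers of fenestrated endothelium at 1142 and 1213 CPM, against 362 and 364 CPM in capillary-like cells. Microglia markers were at 1675 and 1370 CPM in arterial-like cells, against 613 and 1185 CPM in capillary-like cells. The 8 venous markers summed to 1888 and 1877 CPM in venous-like and 484 and 553 CPM in capillary-like cells. Ackr1 was at 0 in venous-like cells of both libraries. The 7 capillary markers separated the gates less, at 11345 and 11314 CPM in arterial-like and 12178 and 12243 CPM in venous-like cells, against 14713 and 14824 CPM in capillary-like cells. Of these, Spock2, Cxcl12 and Tgfb2 were higher in arterial-like than in capillary-like cells of both libraries, Tgfb2 at 127 and 148 CPM, against 44.6 and 41.6 CPM. The 10 pericyte markers reached 35007 and 36288 CPM in mural-like cells, against 285 and 280.0 CPM in capillary-like cells. Depth differed between gates, with a median of 6352 and 5110 UMIs in arterial-like, 8735 and 6834 in venous-like and 5012 and 4425 in capillary-like cells, and a deeper cell has more markers with a UMI.

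All 10 members were measured in capillary-like, arterial-like and venous-like cells, a term used for genes that reach 50 CPM and 30 UMIs in the higher of both libraries. In cells thinned to 2000 UMIs, the median capillary-like cell of both libraries had UMIs of 8 of the 10 genes, against 1 in mural-like and 0 in microglia-like cells. Cldn5 had a UMI in 99.1% and 99.0% of thinned capillary-like cells (exact interval 98.0 to 99.7 and 97.8 to 99.6), against 0.0937% and 0.252% of microglia-like cells. Ocln, the member detected in the fewest, had one in 54.2% and 55.5%, against 0.406% and 0.344% of microglia-like cells.

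**Figure D1:**
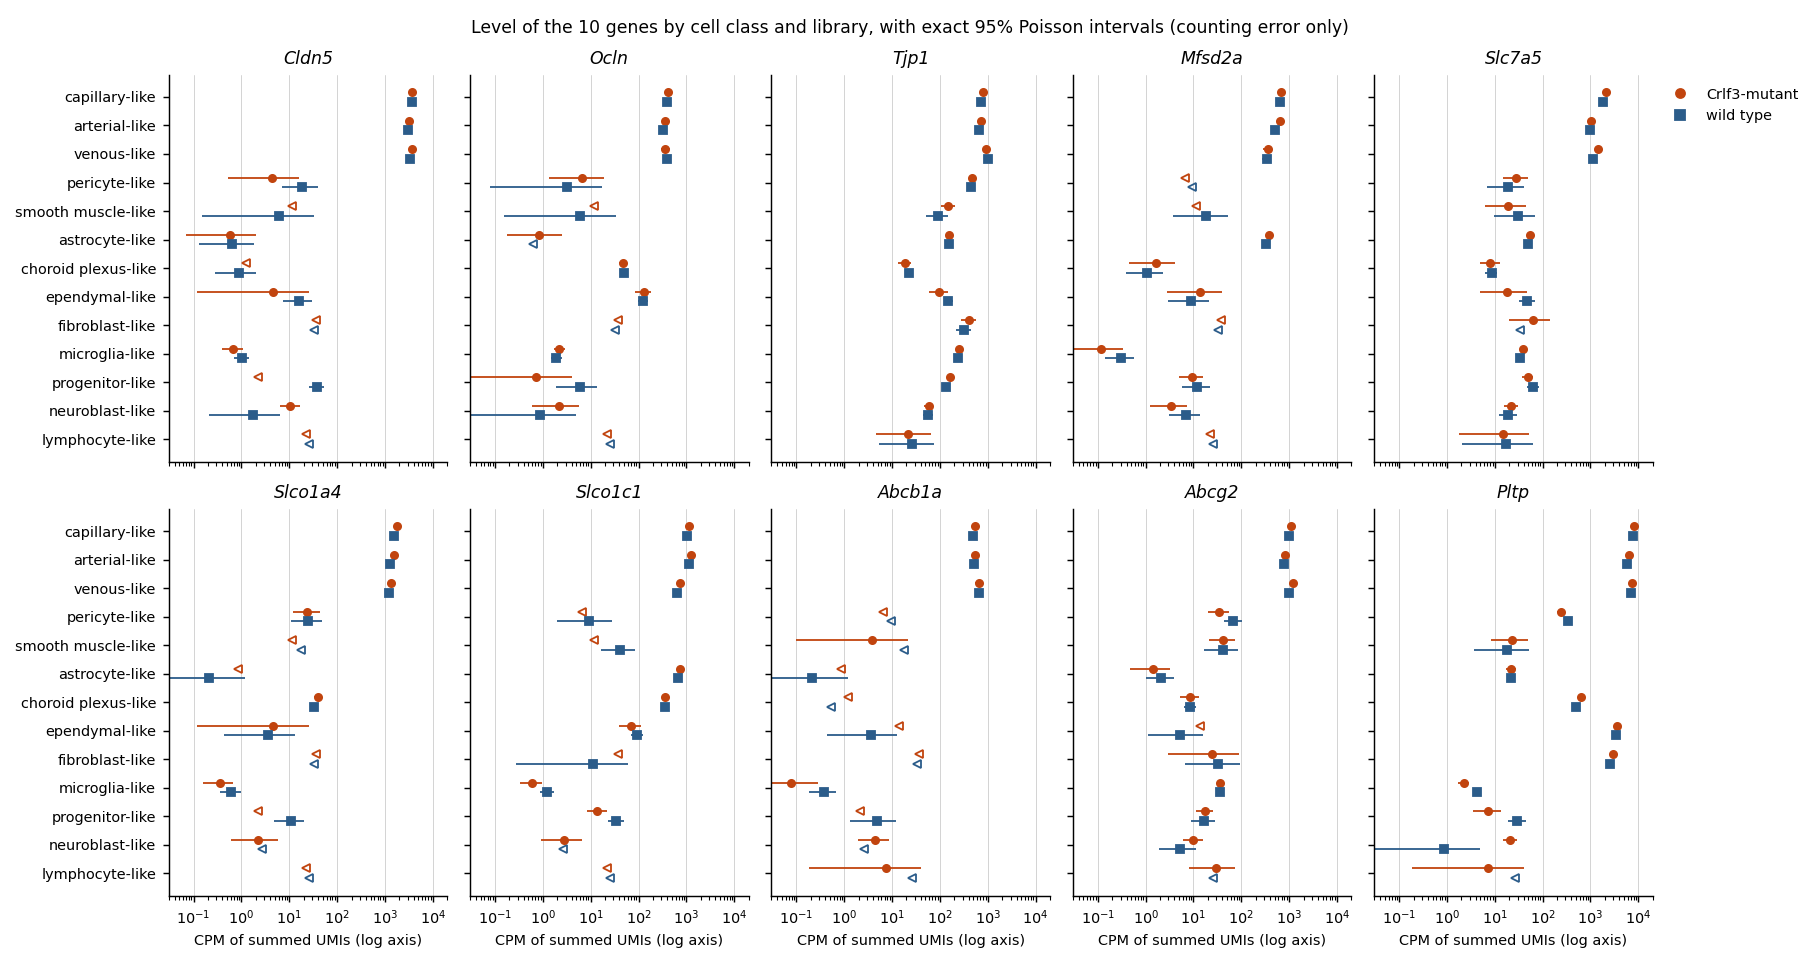
Level of each gene (CPM, log axis) in 13 cell classes, as circles for the Crlf3-mutant and squares for the wild type library, with exact 95% Poisson intervals; open triangles mark classes with no UMI, drawn at the level that 3 UMIs would have. All 10 genes are high in the 3 endothelial classes, Cldn5 and Abcb1a are near 0 elsewhere, and Mfsd2a, Slco1c1, Tjp1 and Pltp have further classes with high levels.

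Among the junction genes, Cldn5 (chromosome 16, 18776847 to 18778262, GRCm38) was at 3606 CPM in Crlf3-mutant and 3755 CPM in wild type capillary-like cells. Ocln (chromosome 13, 100496507 to 100552718) was at 421 and 389 CPM, and Tjp1 (chromosome 7, 65296165 to 65527781) at 805 and 737 CPM. Of these, Cldn5 was the only one higher in the wild type library. Among the lipid and nutrient carriers, Mfsd2a (chromosome 4, 122946850 to 122961188) was at 691 and 644 CPM and Slc7a5 (chromosome 8, 121881150 to 121907694) at 2144 and 1858 CPM. The organic anion carriers Slco1a4 and Slco1c1 lie 235262 bases apart on chromosome 6 (141805440 to 141856199 and 141524368 to 141570177), on opposite strands. Slco1a4 was at 1746 and 1562 CPM and Slco1c1 at 1155 and 1044 CPM. Both were higher in the Crlf3-mutant library by a similar step. The pumps Abcb1a (chromosome 5, 8660077 to 8748575) and Abcg2 (chromosome 6, 58584523 to 58695676) were at 542 and 491 CPM and at 1071 and 980.0 CPM, and Pltp (chromosome 2, 164839518 to 164857711) at 8166 and 7699 CPM.

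In capillary-like cells 9 of the 10 genes were higher in the Crlf3-mutant library, by small amounts, and none was past 1.5-fold. The count of 0 of 10 stands beside 0.504% of the 3569 genes measured in these cells that were past 1.5-fold in either direction. The log2 ratio of Crlf3-mutant over wild type was highest for Slc7a5 (0.21, interval 0.15 to 0.26) and next for Slco1a4 (0.16, 0.10 to 0.22), Slco1c1 (0.15, 0.08 to 0.22) and Abcb1a (0.14, 0.04 to 0.24). Abcg2 (0.13), Tjp1 (0.13), Ocln (0.11), Mfsd2a (0.10) and Pltp (0.08) followed, and Cldn5 was at -0.06 (-0.10 to -0.02). The counting interval held 0 for Ocln alone, at its lower end. The median of the 10 was 0.13, against 0.00 over all measured genes, of which 51.4% were above 0. Capillary-like cells also differed in transcripts of other cell types between the libraries, with the 13 microglia markers at 613 and 1185 CPM, against 53329 and 53369 CPM in microglia-like cells, the 9 choroid plexus markers at 41.4 and 203 CPM, with 5 and 1 of them at 0, and the 10 astrocyte markers at 729.9 and 814 CPM. Most of the choroid plexus sum was Ttr (transthyretin), at 40.4 and 199 CPM. Without cells holding at least 50 microglial UMIs the median log2 ratio of the members was 0.12, and the part of choroid plexus transcripts was not tested.

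Cells split by sex-linked transcripts gave different values. In female-type cells (199 and 177 capillary-like cells) the median log2 ratio of the 10 genes was 0.20, and in male-type cells (141 and 142 cells) it was 0.03. In male-type cells Mfsd2a was at -0.02, Abcg2 at -0.06 and Pltp at -0.04, below 0 as Cldn5 was (-0.08), while Slco1c1 (0.19) and Slc7a5 (0.16) were above 0. With 2 mice in each pool and both types of cell in each library, each pool would hold 1 female and 1 male mouse. The split by sex is then also a split by animal, and sex and animal cannot be told apart. The difference between these sets of cells was not tested.

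**Figure D2:**
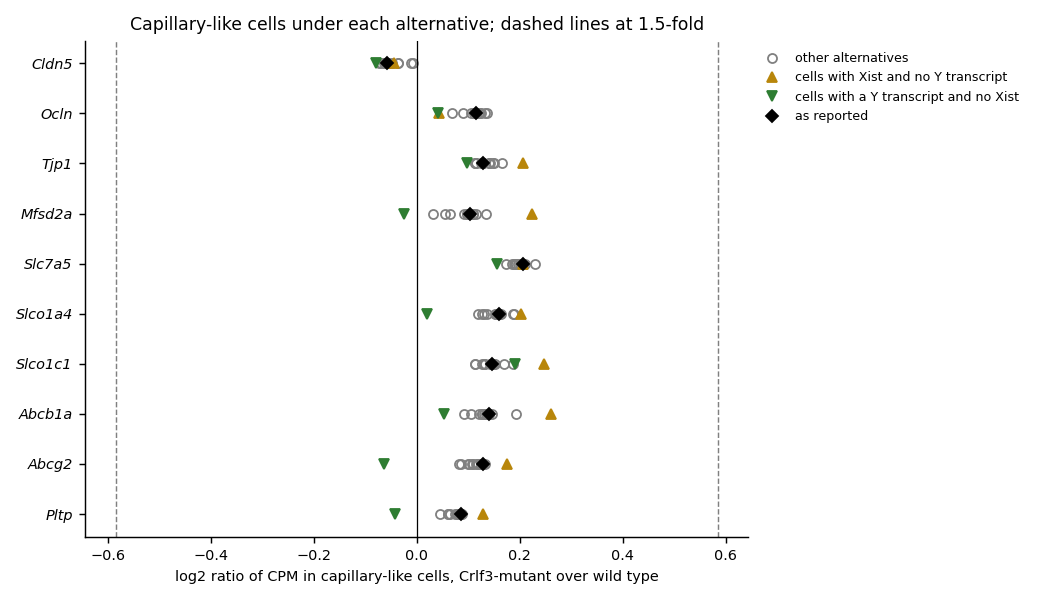
Log2 ratio of Crlf3-mutant over wild type in capillary-like cells for each gene, as reported (diamonds) and under 17 other settings, with female-type (Xist found) and male-type (Y transcript found) cells marked as triangles. No value passes the dashed lines at 1.5-fold, and in male-type cells 4 of the 10 genes are below 0.

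In arterial-like cells all 10 genes were higher in the Crlf3-mutant library, as were 53.2% of 3535 measured genes. Again none was past 1.5-fold, where 7.95% of the measured genes were. Mfsd2a had the highest ratio, at 657 CPM in Crlf3-mutant and 499.5 CPM in wild type cells, a log2 ratio of 0.39 (interval 0.17 to 0.63). Slco1a4 was at 1513 and 1295 CPM (0.22, 0.08 to 0.37) and Pltp at 6299 and 5907 CPM (0.09, 0.02 to 0.16). The intervals of the other 7 genes held 0. The median was 0.10, against 0.02 over all measured genes, and it was -0.08 in the 32 and 27 female-type cells. With at least 6 arterial markers asked of an arterial-like cell (36 and 31 cells), Slc7a5 alone passed 1.5-fold, at 0.66.

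In venous-like cells 8 of the 10 were higher in the Crlf3-mutant library, as were 51.5% of 1562 measured genes. None was past 1.5-fold, against 11.3% of the measured genes. The median of the 10 was 0.11, against 0.01 over all measured genes. The ratios ran from -0.15 for Ocln to 0.32 for Abcg2, from 23 and 33 cells. Cldn5 was at 3735 CPM in Crlf3-mutant and 3350 CPM in wild type venous-like cells (0.16, 0.02 to 0.30), the opposite sign to capillary-like cells.

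**Figure D3:**
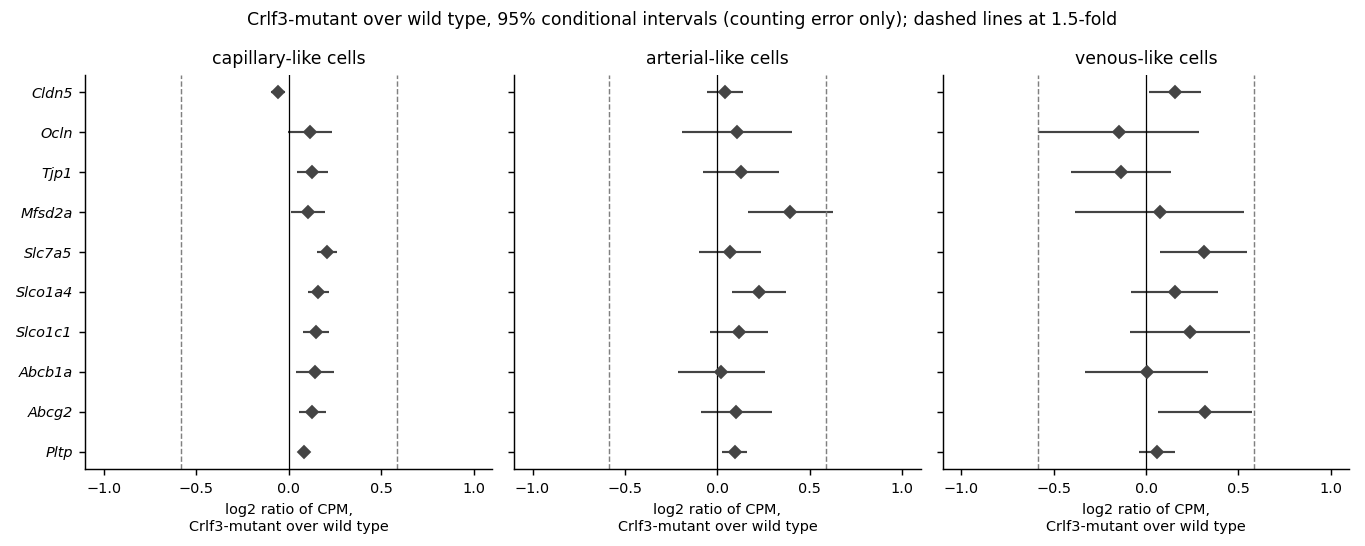
Log2 ratio of CPM, Crlf3-mutant over wild type, for each gene in capillary-like, arterial-like and venous-like cells, with conditional 95% intervals and dashed lines at 1.5-fold. All values lie between the dashed lines, and intervals widen with fewer cells.

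Slc7a5 set arterial-like cells apart from capillary-like cells more than any other member. It was at 1029 CPM in arterial-like and 2144 CPM in capillary-like cells of the Crlf3-mutant library (log2 ratio -1.06, interval -1.17 to -0.95), and at 982 and 1858 CPM in the wild type library (-0.92, -1.06 to -0.78). It was the only member past 1.5-fold in both libraries, 1 of 10, beside 8.81% of 3382 measured genes in either direction and 3.61% lower. The share of members past the line was thus near that of all genes.

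Smaller steps in the same direction were seen for most others. Abcg2 was at 821 CPM in arterial-like and 1071 CPM in capillary-like cells of the Crlf3-mutant library and at 765 and 980.0 CPM in the wild type library (-0.38 and -0.36). Pltp was at 6299 and 8166 CPM and at 5907 and 7699 CPM (-0.37 and -0.38). Cldn5, Ocln, Tjp1, Mfsd2a and Slco1a4 were also lower in arterial-like cells of both libraries, with ratios between -0.07 and -0.37. Of these, the interval held 0 for Mfsd2a in the Crlf3-mutant library (-0.22 to 0.07) and for Tjp1 in the wild type library (-0.34 to 0.01). In all 8 of the 10 members were below 0 in both libraries, as were 36.7% of measured genes, and the median of the 10 was -0.24, against -0.02. Slco1c1 was the exception, at 1231 CPM in arterial-like and 1155 CPM in capillary-like cells (0.09) and at 1136 and 1044 CPM (0.12). Its intervals held 0 in both libraries (-0.01 to 0.20 and -0.01 to 0.26). Abcb1a changed sign between the libraries (-0.03 and 0.09), and its intervals held 0 in both.

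**Figure D4:**
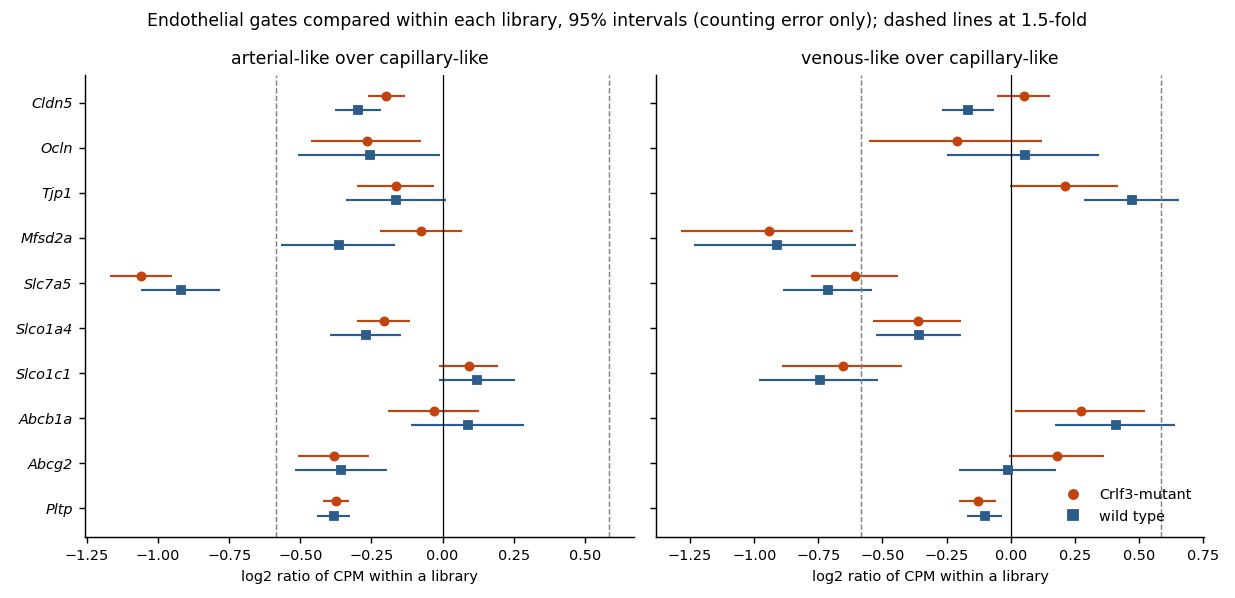
Log2 ratio of CPM within each library, arterial-like over capillary-like (left) and venous-like over capillary-like (right), as circles for the Crlf3-mutant and squares for the wild type library, with 95% intervals and dashed lines at 1.5-fold. Slc7a5 passes the line on the left in both libraries, and Mfsd2a, Slc7a5 and Slco1c1 pass it on the right.

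Slc7a5 was lower the more arterial markers a cell held, from 3 on. Among endothelial cells outside the venous-like gate, it was at 2137 CPM in the Crlf3-mutant and 1713 CPM in the wild type library with no arterial marker, 2237 and 1922 CPM with 2, 1814 and 1499 CPM with 3 (just outside the arterial-like gate), 1212 and 1424 CPM with 4 or 5 (just inside it), and 702 and 446 CPM with 6 or more. Thinned to 2000 UMIs, cells with 6 or more markers held 694 and 300.0 CPM. Mfsd2a did not follow the same course. It was at 646 and 624 CPM with no arterial marker, 808 and 804 CPM with 3, and 495 and 379 CPM with 6 or more. In thinned cells it was at 663 and 652 CPM with none, 672 and 781 CPM with 3, and 556 and 400.0 CPM with 6 or more, and with 2 it was at 765 and 686 CPM. The thinned intervals with none and with 3 overlapped in both libraries. Abcg2 was at 1020 and 1055 CPM with no marker and 654 and 659 CPM with 6 or more, while Slco1c1 was at 1064 and 991 CPM and at 1172 and 1119 CPM. Median depth moved with the markers, 4815 and 4110 UMIs with none and 7022 and 6410 with 6 or more; its part in the counts per marker bin was not tested beyond the thinning.

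**Figure D5:**
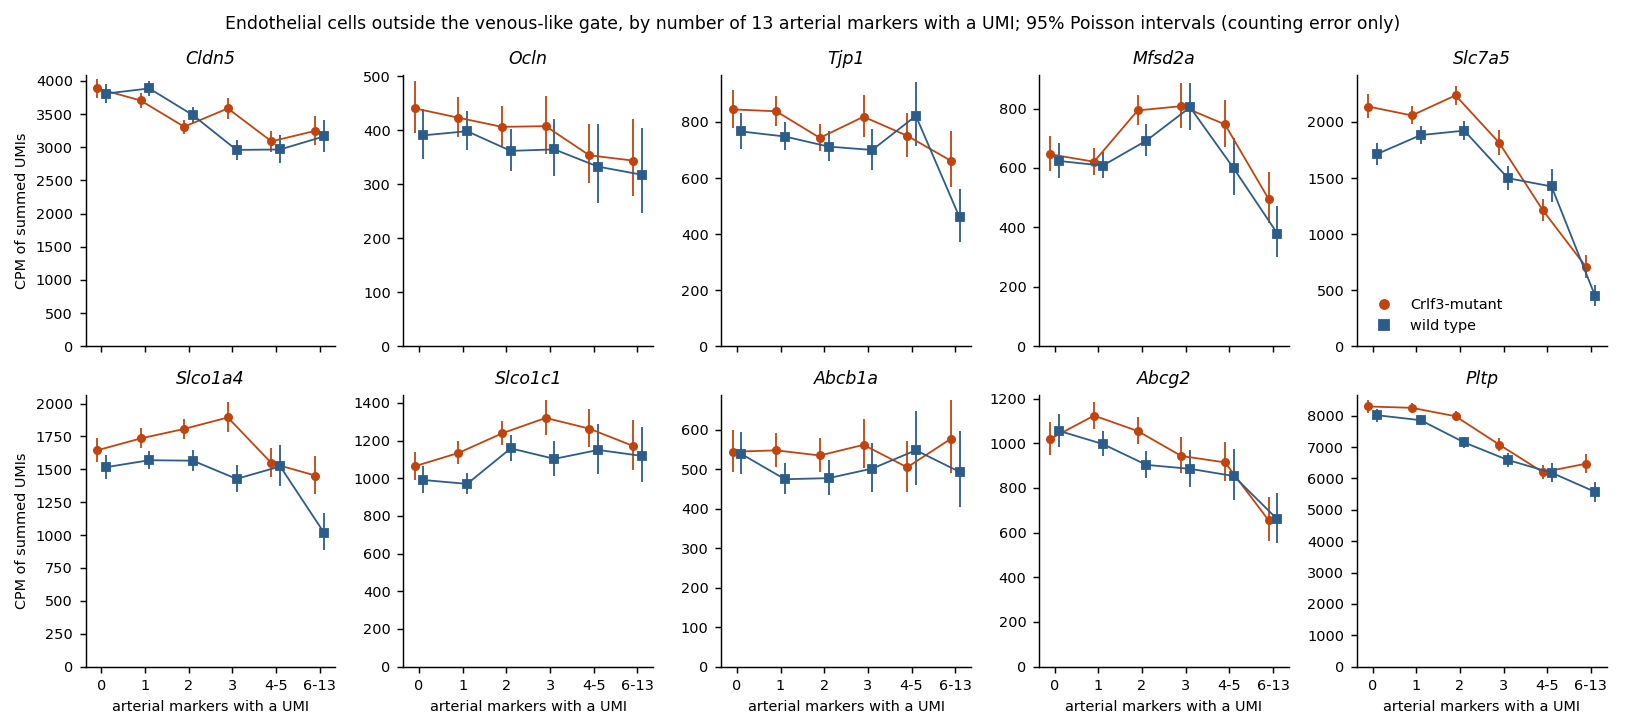
CPM of each gene in endothelial cells outside the venous-like gate, by the number of 13 arterial markers with a UMI (bins 0, 1, 2, 3, 4 to 5 and 6 to 13), circles for the Crlf3-mutant and squares for the wild type library with 95% Poisson intervals. Slc7a5 is at 702 and 446 CPM in the last bin, and Slco1c1 and Abcb1a are about as high there as with no marker.

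Venous-like cells held less of 3 carriers. Mfsd2a was at 360.1 CPM in venous-like and 691 CPM in capillary-like cells of the Crlf3-mutant library and at 342 and 644 CPM in the wild type library (log2 ratios -0.94 and -0.91). Slco1c1 was at 734 and 1155 CPM and at 623 and 1044 CPM (-0.65 and -0.75), and Slc7a5 at 1408 and 2144 CPM and at 1135 and 1858 CPM (-0.61 and -0.71). These were the 3 members past 1.5-fold in both libraries, beside 6.8% of 2148 measured genes in either direction and 4.52% lower. In the other direction Abcb1a was at 656 CPM in venous-like and 542 CPM in capillary-like cells and at 654 and 491 CPM (0.28 and 0.41), and Tjp1 at 933 and 805 CPM and at 1023 and 737 CPM (0.21 and 0.47), both within 1.5-fold. Venous-like cells were also richer in microglia markers, at 2705 and 2565 CPM, and without cells holding at least 50 microglial UMIs 2 of the 3, Mfsd2a and Slco1c1, were past 1.5-fold in both libraries. The 3 calls rest on 23 and 33 cells, and the median over all genes of the same ratio was -0.15. Mfsd2a was the 1 member past 1.5-fold with median-of-ratios size factors and without the 5% of cells with most UMIs, and none was in the 10 and 13 female-type cells.

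Mural-like cells held little of any member but Tjp1 and Pltp. All 10 were lower than in capillary-like cells past 1.5-fold in both libraries, beside 24.3% of 4035 measured genes lower and 48.4% in either direction. Members other than Tjp1 and Pltp were measured through capillary-like cells alone, so past 1.5-fold they could only come out lower. All were also chosen as genes of the blood-brain barrier, so the count of 10 is no test against these shares. Cldn5 was at 2.78 CPM (2 UMIs) in Crlf3-mutant and 14.3 CPM (7 UMIs) in wild type mural-like cells, and Mfsd2a had 0 and 3 UMIs and Abcb1a 1 and 0. Slco1c1 had 0 UMIs in Crlf3-mutant and 10 UMIs (20.5 CPM) in wild type mural-like cells, a log2 ratio of -2.30 against the floor of 3 UMIs (interval -4.80 to -0.34). Tjp1 was at 352 and 324 CPM, most of it in pericyte-like cells (467 and 447 CPM, against 149.5 and 89.4 CPM in smooth muscle-like cells). These 2 genes were the members measured there. Pltp was at 163 CPM in Crlf3-mutant and 232 CPM in wild type mural-like cells, a log2 ratio of -0.51 (interval -0.90 to -0.12), within 1.5-fold, where 8.42% of 3729 measured genes were past it. Over 16 other settings it ran from -0.83 to -0.16, the last without doublet removal. The 13 endothelial markers summed to 1119 and 1146 CPM in mural-like cells, with 3 and 1 of them at 0. The microglia markers were there at 1012 and 269 CPM, the astrocyte markers at 1390 and 2035 CPM and the choroid plexus markers at 62.6 and 307 CPM. Without cells holding at least 50 microglial UMIs the ratio of Pltp was -0.47. Another setting left out mural-like cells with at least 4 endothelial markers and kept 147 and 116 cells. The Pltp ratio stayed within its counting interval in all 16 other settings that measured it. Beyond these settings, the part of the other transcripts in the Pltp and Slco1c1 levels was not tested.

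Outside the vessels, the genes parted into those kept to endothelium and those shared. Cldn5 and Abcb1a were near 0 elsewhere: Abcb1a had at most 8 UMIs in any named Crlf3-mutant class and at most 11 in any named wild type class outside endothelium, and Cldn5 was highest outside endothelium in neuroblast-like cells of the Crlf3-mutant library (19 UMIs) and progenitor-like cells of the wild type library (32 UMIs, 37.9 CPM). Of all UMIs in filtered cells, endothelial clusters held 97.7% and 95.3% for Cldn5, 96.9% and 96.0% for Abcb1a and 96.2% and 92.9% for Slco1a4. They held 59.9% and 43.5% for Slco1c1, 68.6% and 59.9% for Mfsd2a and 31.9% and 26.1% for Tjp1. These shares also depend on how many cells of each class a library held.

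Astrocyte-like cells shared Slco1c1 and Mfsd2a with the endothelium. Slco1c1 was there at 729 CPM in the Crlf3-mutant and 675 CPM in the wild type library, and Mfsd2a at 379.5 and 326 CPM. Among the classes, Slco1c1 was higher in arterial-like and capillary-like cells, and it was about level in astrocyte-like and venous-like cells (734 and 623 CPM), whose intervals overlap in each library. Mfsd2a was also close in astrocyte-like and venous-like cells (360.1 and 342 CPM), with overlapping intervals. The 13 endothelial markers summed to 9.64 and 10.1 CPM in astrocyte-like cells and Cldn5 was at 0.567 and 0.634 CPM there. The choroid plexus markers summed to 35.4 and 369 CPM in the same cells, and their part in the Slco1c1 level was not tested. Their ratios of Crlf3-mutant over wild type were 0.22 for Mfsd2a (interval 0.11 to 0.32) and 0.11 for Slco1c1 (0.03 to 0.18), with 0 of the 4 members measured there past 1.5-fold, beside 1.02% of 3622 genes.

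The choroid plexus, the epithelium that makes cerebrospinal fluid, held Slco1c1 without Mfsd2a. Slco1c1 was at 353 and 353 CPM in choroid plexus-like cells, and Mfsd2a at 1.62 and 1.05 CPM. Slco1a4, its neighbour on chromosome 6, was at 39.7 and 33.3 CPM there and had 0 UMIs in Crlf3-mutant and 1 in wild type astrocyte-like cells. Over the 26 points of 13 classes in 2 libraries, which share library and depth, Slco1a4 correlated with Slco1c1 at r = 0.75 and with Cldn5 at r = 0.97, on log2(CPM + 10). Pltp was at 633 CPM in Crlf3-mutant and 495 CPM in wild type choroid plexus-like cells, a log2 ratio of 0.35 (interval 0.26 to 0.44), within 1.5-fold, beside 0.837% of 2628 measured genes past it and a median of 0.07 over all of them. It ranged from 0.25 to 0.45 over the alternative settings that measured it. The alternative endothelial gates left choroid plexus-like cells as they were. Of these cells 2 and 5 were female-type and 76 and 217 male-type. Nearly all that could be typed were thus male-type, which would be 1 mouse per library. Cldn5 had 0 and 5 UMIs in choroid plexus-like cells.

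Pltp was also high in classes with few cells, ependymal-like (3546 and 3428 CPM, 22 and 55 cells) and fibroblast-like cells (2949 and 2557 CPM, 9 and 10 cells). Ependymal-like cells held Ocln at 127 and 127 CPM and choroid plexus-like cells at 48.2 and 49.0 CPM. Tjp1 was the most widely spread member, at 252 and 241 CPM in microglia-like, 158 and 158 CPM in astrocyte-like and 405 and 318 CPM in fibroblast-like cells. Microglia-like cells also held Slc7a5 at 38.8 and 33.8 CPM and Abcg2 at 36.5 and 36.4 CPM, whereas Cldn5 was at 0.658 and 1.01 CPM and Abcb1a at 0.0774 and 0.372 CPM in the same cells.

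Genes outside the 10 with the most similar course over the 26 points were other endothelial genes. For Cldn5 these were Ptprb (r = 0.996), Tie1, Adgrl4, Egfl7 and Ushbp1 (r = 0.991) among 8299 genes, and for the mean of the 10 members Nos3 (0.984), Egfl7, Far2, Tie1 and Degs2 (0.975). Between members r ran from 0.38 (Tjp1 with Slco1c1) to 0.99 (Cldn5 with Abcb1a). Ptprb, Tie1 and Egfl7 are also markers used to name the endothelial clusters, so their values are in part set by the classes.

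The members were set beside 5 lists of related genes, of which 0 genes were past 1.5-fold between the libraries in capillary-like cells, beside 0.504% of all genes. Of all genes measured in these cells, 51.4% were above 0, with a median of 0.00. Of 21 other solute carriers, 18 were measured, 12 above 0, with a median log2 ratio of 0.06 and with Slc39a10, a zinc carrier, the highest (383 CPM in Crlf3-mutant and 318 CPM in wild type cells, 0.27) and Slc38a5, a glutamine carrier, the lowest (255 and 299 CPM, -0.23). Of 17 receptors and genes of vesicle transport, 12 were measured, 9 above 0, and the transferrin receptor gene Tfrc was at 388 and 269 CPM (0.53, interval 0.40 to 0.66) and Cav1, of caveolae, at 328 and 261 CPM (0.33), while Cavin1, also of caveolae, was at 138 and 156 CPM (-0.17, -0.37 to 0.02). Of 18 regulators of the barrier, 17 were measured, 10 above 0, among them Lef1, a transcription factor of Wnt signalling (308 and 249.9 CPM, 0.30), Apcdd1, a Wnt inhibitor (668 and 566 CPM, 0.24), and the transcription factor Foxf2 (206 and 167 CPM, 0.30). The transcription factors Sox17 (493 and 538 CPM, -0.13) and Sox18 (740 and 797 CPM, -0.11) had intervals below 0, and Ppard was at 78.6 and 92.7 CPM (-0.24, -0.50 to 0.02); Sox17 and Ppard were chosen after their values were seen. Of 16 further junction genes 12 were measured, between F11r (199 and 218 CPM, -0.13) and Pecam1 (719 and 622 CPM, 0.21), and of 12 other ABC transporters 2 were measured, Abcc4 (146 and 133 CPM, 0.13) and Abca1 (35.9 and 50.4 CPM, -0.49).

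Between gates, the solute carriers differed most. Of the 18 measured, 10 were lower and 1 higher past 1.5-fold in arterial-like than in capillary-like cells of both libraries, beside 3.61% of all measured genes lower and 8.81% in either direction, with a median log2 ratio of -0.82, against -0.02 over all genes. Slc38a5 was at 30.5 CPM in arterial-like and 255 CPM in capillary-like cells of the Crlf3-mutant library and at 19.3 and 299 CPM in the wild type library (-3.06 and -3.95). The lactate carrier Slc16a1 (-2.40 and -2.56) and the nucleoside carrier Slc29a1 (-1.82 and -1.18) were also lower. Slc38a5, Slc16a1 and Slc29a1 were under 50 CPM in arterial-like cells of both libraries. They were measured through capillary-like cells alone, so they could only come out lower. The 1 higher was Slc6a6, the taurine carrier, named after its values were seen. It was at 1401 CPM in arterial-like and 588 CPM in capillary-like cells of the Crlf3-mutant library. In the wild type library it was at 1514 and 648 CPM. Slc3a2, the heavy chain that pairs with Slc7a5, was at 706 CPM in arterial-like and 1104 CPM in capillary-like cells of the Crlf3-mutant library (-0.65) and had a log2 ratio of -0.49 in the wild type library; it too was chosen after its values were seen. Tfrc (-1.14 and -1.19) and Apcdd1 (-1.38 and -1.15) were lower in arterial-like cells as well. Plvap, of the fenestral diaphragm, was at 117 and 64.3 CPM in arterial-like cells, against 0.323 and 10.8 CPM in capillary-like cells. It was measured through arterial-like cells alone. Abca1, a lipid exporter (1.26 and 0.87), and the barrier regulators Reck (0.63 and 0.82) and Sox18 (0.64 and 0.82) were higher there, and no further junction gene was past 1.5-fold in both libraries.

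Some sequence of these genes is shared with others. Of the 91-base windows of the transcripts of each member, 10.37% in Abcb1a were shared with Abcb1b or Abcb4 and 0.78% in Slco1a4 with other genes, none of them in the first 500 bases of a transcript, near which reads of a 5′ library start; the other 8 members shared none. Abcb1b, 49571 bases from Abcb1a, was at 0.647 and 0.350 CPM in capillary-like cells. On the same strand, Tjp1 overlaps Gm44794 and Gm44792, and Abcb1a overlaps Gm42684. On the other strand, Pltp overlaps Ctsa, Slc7a5 overlaps Gm20388, Tjp1 overlaps Gm44795 and Abcb1a overlaps Gm42686.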

How the data were processed

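Libraries were made with the 10x Genomics 5′ kit v2, and raw UMI counts per gene and barcode were deposited by the authors, made with Cell Ranger 6.1.1 against an mm10 reference, per the labels' protocols and the file headers. Kept cells had 500 genes and 1000 UMIs or more, with mitochondrial UMIs up to 10%. Scrublet (expected rate 0.06, scanpy 1.11.5) marked 78 (1.46%) Crlf3-mutant and 137 (1.89%) wild type cells as doublets, which were removed. Cells were clustered on 2000 variable genes (30 components, 15 neighbours, Leiden 1.0, leidenalg 0.10.2) without the members and other listed solute carriers, and named from marker lists. Counts were summed per class and library and scaled to CPM. Intervals are exact Poisson, Clopper-Pearson or conditional binomial at 95%; ratios against 3 counts or fewer use a floor of 3 counts. Scripts were tested on simulated data. The members and lists were chosen with earlier results of these data known. The gates, cluster-naming rule, venous-like comparison and marker bins were set after member levels had been seen. In each list, the 4 genes with the largest differences between libraries and the 3 with the largest differences between arterial-like and capillary-like cells were eligible for naming.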

Additional observations from a re-analysis of the deposited data

Results flagged for a closer look

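Cldn5 had a log2 ratio of Crlf3-mutant over wild type of -0.0584 in capillary-like and 0.1568 in venous-like cells, opposite signs with intervals on either side of 0. Pltp was at 0.08492 in capillary-like, 0.09273 in arterial-like and 0.3546 in choroid plexus-like cells, and at -0.5098 in mural-like cells. With 1 library per genotype none of these differences between classes was tested.

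A cluster of 22 Crlf3-mutant and 40 wild type cells was left out of every class. Its highest score for a marker list was 0.472, under the 0.5 needed for a name. Its cells held a median of 11.5 of 13 endothelial and 9 of 10 pericyte markers. Cldn5 was at 1724.5 and 1671.9 CPM there, Abcb1a at 335 and 171 CPM and Pltp at 4234 and 3713 CPM. The doublet caller had kept these cells, and whether they are joined cells was not tested.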

How the results depend on the processing

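Results were recomputed under 17 alternatives, 3 of them chosen after seeing the data. Of 1625 values, 1464 stayed within their counting interval, 161 moved and no value past 1.5-fold changed sign. The tally includes values that an alternative could not move. Without the filter on low counts 98 of 98 were the same, since that filter sets which genes count as measured and not their ratios. The alternative endothelial gates left mural-like, astrocyte-like and choroid plexus-like cells as they were. The median log2 ratio of the members, Crlf3-mutant over wild type, was 0.02988 in male-type capillary-like cells (0.1279 as reported) and -0.08287 in female-type arterial-like cells (0.1024 as reported). The count past 1.5-fold in arterial-like cells was 1 with the stricter gate, against 0. In mural-like cells it was 5 with classes set per cell, 3 without a filter on low counts, and 1 when per-cell CPM were averaged and in female-type cells, against 0. For arterial-like over capillary-like cells it was 2 with the stricter gate, against 1. For venous-like over capillary-like cells it was 1 with median-of-ratios size factors and without the 5% of cells with most UMIs, and 0 in female-type cells, against 3. Shares over all genes are given for the reported setting only, so counts under other settings, here and above, have no background. The 3 in mural-like cells without the filter were genes that the filter leaves out. They were Cldn5 (2 and 7 UMIs), Slco1c1 (0 and 10 UMIs) and Abcg2 (27 and 29 UMIs). The causes of the other changes were not tested. No paired analysis was possible because each genotype has 1 library and the labels give no shared replicate numbers. Venous-like and mural-like cells were few, and 8 of the 10 members were under 50 CPM or 30 UMIs in mural-like cells.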
